A study of Sus scrofa with 599 samples.

Results

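The 8 genes described here belong to cholesterol synthesis and its control. HMGCS1, SQLE, IDI1, FDFT1, LSS and DHCR7 encode 6 enzymes of the pathway, and INSIG1 and SREBF2 encode 2 of its regulators. They were chosen by symbol and by no cutoff on a measured value, though with earlier results of these data known. They are 8 of the 21280 protein-coding genes (PCGs) of the deposited expression table, of which 14821 carry a symbol. None of the 8 encodes a lipoprotein receptor, so cholesterol uptake is covered only by a separate list of genes. Their levels were followed in RNA-seq libraries across the 12 combinations of nutritional group and adipose tissue (AT).

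All pigs were adult female Bama pigs, 2 years old at the start, and all were left unfed the night before they were killed. The normal condition (NC) pigs ate a normal diet, the weight gain (WG) pigs ate a high-fat diet for 22 weeks, and the weight loss (WL) pigs ate that high-fat diet for 22 weeks and then 10% of the normal caloric intake for 12 weeks. Whole tissue was taken from 3 visceral ATs, namely retroperitoneal adipose (RAD), mesenteric adipose (MAD) and the greater omentum (GOM), and from subcutaneous fat, the upper layer of backfat (ULB). There were 38 NC, 158 WG and 40 WL RNA-seq libraries. The numbers for NC, WG and WL were 9, 45 and 10 in GOM, 12, 36 and 10 in MAD, 12, 39 and 10 in RAD, and 5, 38 and 10 in ULB.

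Cholesterol is built from acetyl-CoA through mevalonate. HMGCS1 makes the precursor of mevalonate, IDI1 interconverts the isoprenoid units, FDFT1 joins farnesyl units into squalene, SQLE adds oxygen to squalene, LSS closes the rings to give lanosterol, and DHCR7 carries out the last reduction to cholesterol. SREBF2 encodes SREBP-2, a transcription factor held in the membrane of the endoplasmic reticulum while sterol is plentiful, and INSIG1 is a protein that retains it there. When membrane sterol falls, SREBP-2 is released and binds sterol regulatory elements upstream of the enzymes' genes and of SREBF2 and INSIG1 themselves. Adipocytes hold a large store of free cholesterol, much of it taken up from lipoproteins, and make comparatively little of it.

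The sequences upstream of 4 of the genes are shown because those of HMGCS1 and SREBF2 hold a sterol regulatory element and those of IDI1 and LSS, the members with the largest changes, do not. Each is the 250 bases before the outermost start of a RefSeq mRNA of the gene on Sscrofa11.1, written 5′ to 3′ on the gene's strand. The windows are chr16:27957262-27957511 (minus strand) for HMGCS1, chr5:6784725-6784974 (minus strand) for SREBF2 and chr10:68534270-68534519 (plus strand) for IDI1. That of LSS lies at 519335 to 519584 of an unplaced scaffold (plus strand), before an mRNA that starts at 519585, while a non-coding transcript sets the start of the gene. The IDI1 window belongs to the RefSeq gene whose product is isopentenyl-diphosphate delta-isomerase 1, which carries no symbol there. Capitals mark matches on either strand to the sterol regulatory element TCACNCCAC, the E-box CACGTG and the CCAAT box.
HMGCS1: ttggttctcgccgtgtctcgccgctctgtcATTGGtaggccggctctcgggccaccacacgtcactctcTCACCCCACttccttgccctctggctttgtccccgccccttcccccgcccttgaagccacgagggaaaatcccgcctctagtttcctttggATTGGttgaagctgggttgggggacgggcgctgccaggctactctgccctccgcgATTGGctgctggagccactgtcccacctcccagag
SREBF2: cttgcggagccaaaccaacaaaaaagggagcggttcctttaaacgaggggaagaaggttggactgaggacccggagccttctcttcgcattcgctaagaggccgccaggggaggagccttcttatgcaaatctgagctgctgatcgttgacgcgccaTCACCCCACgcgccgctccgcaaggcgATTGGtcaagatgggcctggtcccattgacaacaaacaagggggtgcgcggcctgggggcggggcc
IDI1: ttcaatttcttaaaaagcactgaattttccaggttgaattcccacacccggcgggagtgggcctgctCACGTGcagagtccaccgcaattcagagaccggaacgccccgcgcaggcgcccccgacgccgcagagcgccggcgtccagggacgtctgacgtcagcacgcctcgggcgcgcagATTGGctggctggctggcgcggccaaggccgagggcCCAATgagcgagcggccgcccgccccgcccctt
LSS: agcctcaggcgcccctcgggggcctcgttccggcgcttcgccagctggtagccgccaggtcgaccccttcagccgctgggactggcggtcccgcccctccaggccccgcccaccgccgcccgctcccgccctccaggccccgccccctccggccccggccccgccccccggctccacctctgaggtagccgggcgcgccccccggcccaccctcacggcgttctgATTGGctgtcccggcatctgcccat

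Of the 4 windows shown, the sterol regulatory element lay in those of HMGCS1 and SREBF2. The 4 were picked by its presence or absence, so their count cannot be read against the share of all promoters. That share was 0.770% of the 20638 promoters of the same length. Before another mRNA start of SREBF2 the element was absent. The E-box lay in the window of IDI1 and in 6.17% of promoters. A CCAAT box was present in each of the 4 windows shown and in 32% of promoters, and the Sp1 box GGGCGG, which is not capitalised above, in each of the 4 and in 44.5%. Matches of different motifs did not overlap each other, but Sp1 boxes overlapped other Sp1 boxes in the window of IDI1. The windows of FDFT1, DHCR7 and INSIG1 held no sterol regulatory element either, and none of these genes was called from WG to WL. A match, or the lack of one, describes letters in the window only.

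On Sscrofa11.1, RefSeq places HMGCS1 at chr16:27936225-27957261, IDI1 at chr10:68534520-68539279, FDFT1 at chr14:14976259-15010701, DHCR7 at chr2:2377352-2391846, INSIG1 at chr18:2885494-2898758 and SREBF2 at chr5:6719484-6784724. LSS spans 519582 to 554042 of an unplaced scaffold.

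The libraries held 3337098 to 22939420 expected counts on PCGs, with a median of 16791660. The share of TPM (transcript abundance scaled by transcript length and library total) that fell on PCGs was under 90% in 48 libraries, among them 7 of 9 NC GOM, 6 of 12 NC RAD, 8 of 10 WL GOM and 7 of 10 WL MAD libraries. The 7 adipocyte markers found in the table had a median over 0.5 TPM in each of the 12 groups. WT1, a mesothelial gene, was detected in the visceral ATs, while the summed mesothelial markers had a median of 0.627 TPM or less in the ULB groups. In 6 libraries the summed smooth muscle or lymphocyte markers exceeded 3 times the median of their group. They were NC MAD replicates 1 and 5 for smooth muscle, and WG MAD replicate 31 and WL MAD replicates 1, 6 and 7 for lymphocytes. WG GOM replicate 35 had a median correlation of 0.586 with its group, against 0.883 or more for every other library, and it was also the shallowest. No count of called genes among the 8 changed by over 1.5 times without it.

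All 8 genes were detected above 0.5 TPM in every library. IDI1, FDFT1 and LSS were the most abundant, with medians over all libraries of 61.1, 64.4 and 40.6 TPM. HMGCS1 followed at 32.4, INSIG1 at 21.9, SREBF2 at 18.1 and SQLE at 12.2 TPM, and DHCR7 was lowest at 6.74 TPM. The genes differed in how far their group medians spread. The highest group median was 6.91 times the lowest for LSS and 4.74 times for IDI1, but only 1.85 times for SREBF2, 1.90 times for DHCR7 and 1.94 times for FDFT1. In whole tissue, fewer cells of a type and less RNA per cell cannot be told apart.

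**Figure D1:**
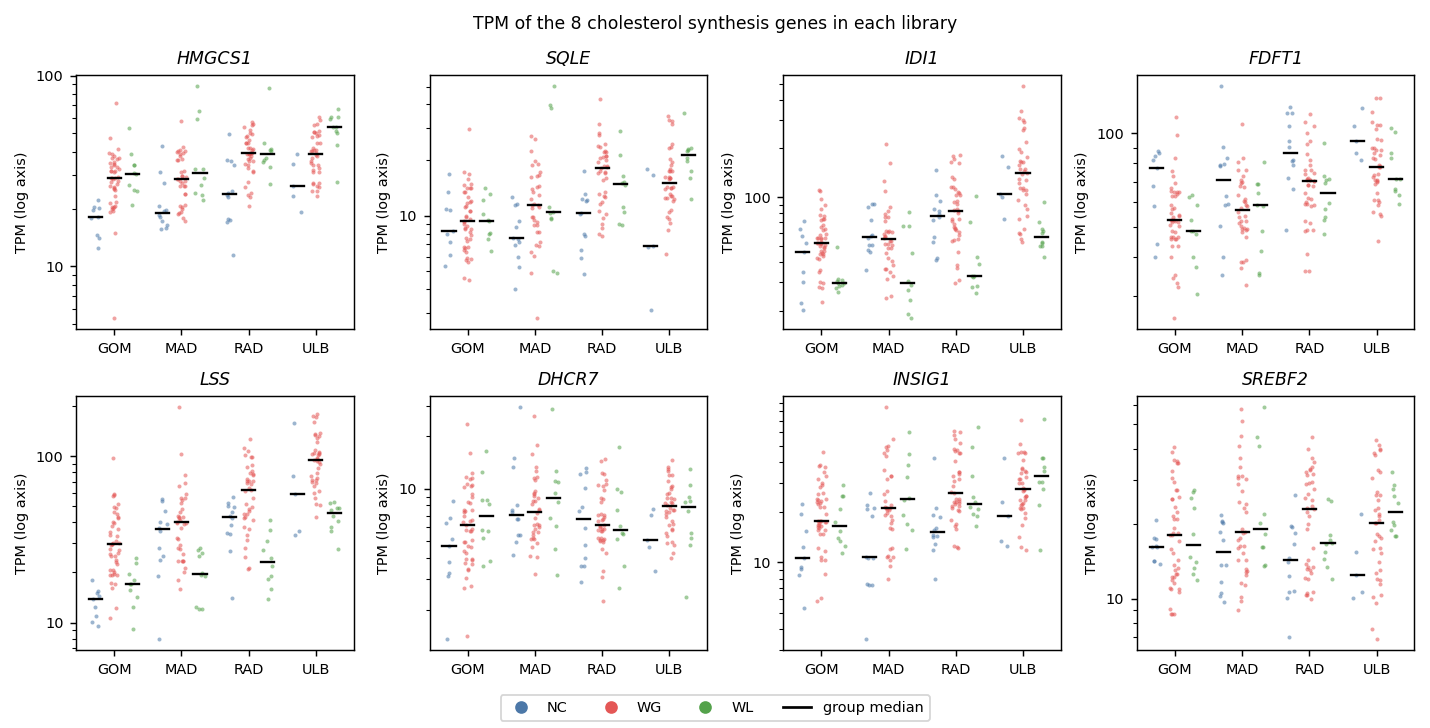
TPM of the 8 genes on log axes, with a point for each library and a bar for the median of each nutritional group in each AT. The WL points of IDI1 and LSS sit low in each AT, with medians of 29.6 to 56.6 TPM for IDI1 and 17.1 to 45.7 TPM for LSS.

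The order of the group medians differed from gene to gene. HMGCS1 ran from 18.1 TPM in NC GOM through 19.03, 23.96 and 26.3 TPM in NC MAD, NC RAD and NC ULB to 53.6 TPM in WL ULB, with the 4 NC groups at the bottom. INSIG1 likewise had NC GOM (10.6 TPM), NC MAD (10.7 TPM) and NC RAD (15.2 TPM) lowest and WL ULB (32.7 TPM) highest. SQLE was lowest in NC ULB (6.83 TPM) and highest in WL ULB (21.4 TPM). IDI1 and LSS instead had WG ULB highest, at 141 and 95.3 TPM. The 3 lowest groups of IDI1 were WL MAD (29.6 TPM), WL GOM (29.7 TPM) and WL RAD (32.5 TPM), and LSS was lowest in NC GOM (13.8 TPM), WL GOM (17.1 TPM) and WL MAD (19.5 TPM). FDFT1 ran from 48.6 TPM in WL GOM to 94.2 TPM in NC ULB, DHCR7 from 4.68 TPM in NC GOM to 8.89 TPM in WL MAD, and SREBF2 from 12.4 TPM in NC ULB to 22.99 TPM in WG RAD. Every pair of neighbours in these orders overlapped in range.

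Among the 8 genes, the largest log2 fold changes between nutritional groups were those of IDI1 and LSS from WG to WL. Every other member had its largest change from NC to WL. A gene is called here where its adjusted p was below 0.05 and its fold change above 1.5, by edgeR's quasi-likelihood test with Benjamini-Hochberg adjustment over all PCGs tested. From WG to WL no member was called higher in any AT, although HMGCS1 and SQLE in MAD had an unadjusted p under 0.05 and DESeq2 called SQLE there (log2 fold change 0.66, adjusted p = 0.0476). IDI1 and LSS were called lower in GOM, where 2.55% of all PCGs were called higher and 2.71% lower. In MAD LSS alone was called lower, with 8.26% of PCGs higher and 9.17% lower. In RAD both were called lower, with 2.24% of PCGs higher and 4.13% lower. In ULB both were called lower again, with 3.22% of PCGs higher and 4.9% lower. The 3 comparisons within an AT share samples, so their values are given side by side and their overlap is not read.

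IDI1 in ULB ranged from 53.2 to 485 TPM in the WG libraries (median 141, n = 38) and from 42.9 to 94.1 TPM in the WL libraries (median 56.6, n = 10). The ranges overlapped, but the highest WL library lay below the WG median. The log2 fold change was −1.51 ± 0.30 (SE, adjusted p = 0.000222). IDI1 in RAD ran from 29.7 to 181 TPM in WG (median 82.7, n = 39) and from 25.8 to 102.1 TPM in WL (median 32.5, n = 10), a log2 fold change of −1.08 ± 0.27 (adjusted p = 0.00608). The highest WL RAD value belonged to replicate 6, and the next was 70.5 TPM. In GOM the 10 WL libraries lay between 26.2 and 49.1 TPM with a median of 29.7, against 22.5 to 111 TPM with a median of 52.6 in WG (n = 45). There the log2 fold change was −0.91 ± 0.19 (adjusted p = 0.000861). In MAD the medians were 55.1 TPM in WG and 29.6 TPM in WL, and the log2 fold change of −0.68 ± 0.29 did not pass the test (adjusted p = 0.0701), while DESeq2 called it (adjusted p = 0.0462).

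LSS fell in each AT. In ULB the WG libraries ranged from 43.1 to 178 TPM (median 95.3, n = 38) and the WL libraries from 27.9 to 53.2 TPM (median 45.7, n = 10), a log2 fold change of −1.30 ± 0.20 (adjusted p = 4.93e-06). In RAD the ranges were 20.9 to 128 TPM (median 63.0) in WG and 13.9 to 41.5 TPM (median 23.1) in WL, with a log2 fold change of −1.37 ± 0.25 (adjusted p = 0.000169). The highest WL library thus lay below the WG median in both ATs. In MAD the median was 40.01 TPM in WG and 19.5 TPM in WL, with no WL library above 28.1 TPM (log2 fold change −1.18 ± 0.27, adjusted p = 0.00119). In GOM it was 29.6 TPM in WG and 17.1 TPM in WL, with no WL library above 24.4 TPM (log2 fold change −1.01 ± 0.24, adjusted p = 0.00391). With the libraries under 90% left out, LSS in GOM and MAD and IDI1 in GOM kept their direction but were no longer called (log2 fold changes −0.79, −1.47 and −1.03, adjusted p = 0.517, 0.165 and 0.387), with 8 of 10 WL GOM and 7 of 10 WL MAD libraries gone.

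None of the other 6 members was called from WG to WL. From WG to WL, the log2 fold changes of HMGCS1 were 0.07, 0.43, 0.02 and 0.29 in GOM, MAD, RAD and ULB, and their adjusted p ran from 0.0578 to 0.941. Those of FDFT1, which like SQLE acts between IDI1 and LSS in the pathway's order, lay between −0.24 and −0.09, and those of INSIG1 between −0.25 and 0.16. SQLE ranged from −0.29 in RAD to 0.65 in MAD, DHCR7 from −0.27 to 0.21 and SREBF2 from −0.38 to 0.26. None of these 24 values was called, and 3 had an unadjusted p under 0.05.

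**Figure D2:**
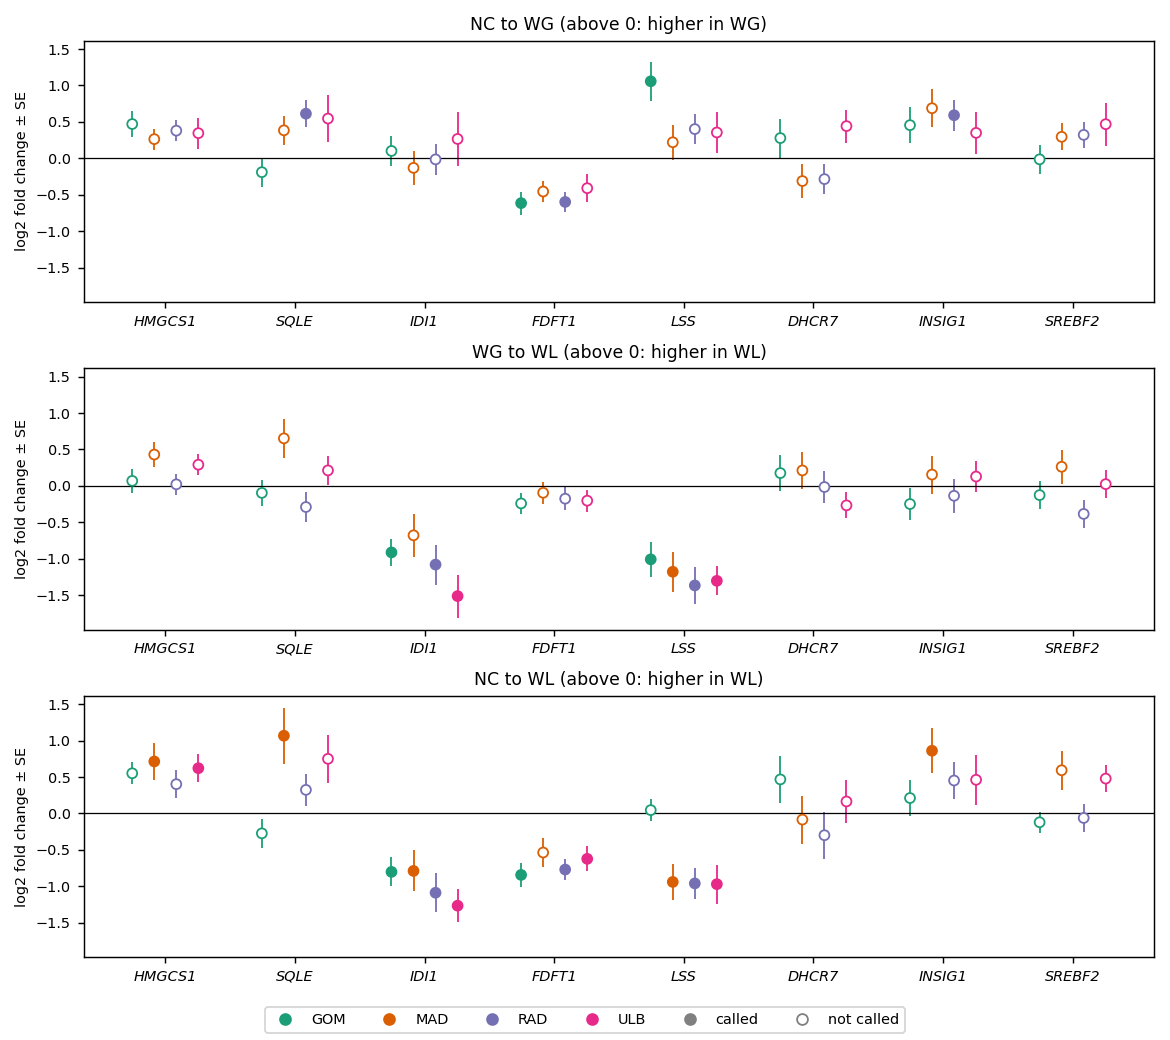
Log2 fold change ± SE of the 8 genes between nutritional groups in each AT; filled points were called and open points were not. From WG to WL the points of IDI1 and LSS lie between −0.68 and −1.51, below those of the other 6 genes in each AT.

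From NC to WG, 4 of the members were called in at least 1 AT, namely LSS, FDFT1, SQLE and INSIG1. From NC to WG in GOM, LSS was called higher and FDFT1 lower, with 12.2% of all PCGs called higher and 14.5% lower. In MAD no member was called, with 5.38% of PCGs higher and 5.29% lower. At an unadjusted p under 0.05 this comparison held 2 of the 8, and DESeq2 called 1, INSIG1. In RAD SQLE and INSIG1 were called higher and FDFT1 lower, with 7.1% of PCGs higher and 9.6% lower. In ULB, with 5 NC libraries, no member was called and 0.507% of PCGs were higher and 1.87% lower; an unadjusted p under 0.05 was held by 1 of the 8 and DESeq2 called none.

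FDFT1, squalene synthase, was the member called lower after weight gain, in GOM and RAD. In RAD it ranged from 48.9 to 122 TPM in NC (median 86.2, n = 12) and from 36.1 to 116 TPM in WG (median 70.2, n = 39), a log2 fold change of −0.60 ± 0.14 (adjusted p = 0.000671). In GOM the median was 77.4 TPM in NC (40.02 to 87.8, n = 9) and 52.8 TPM in WG (25.6 to 113, n = 45), a log2 fold change of −0.62 ± 0.16 (adjusted p = 0.00207). In MAD and ULB the log2 fold changes of −0.46 (adjusted p = 0.0216, fold change under 1.5) and −0.41 (adjusted p = 0.293) were not called. The GOM value changed with the libraries kept. Without libraries under 90%, which leaves out 7 of 9 NC GOM libraries, it became 0.25 (adjusted p = 0.627). The RAD call was lost with no filter (−0.54), with a replicate block (−0.51), with the share of TPM on PCGs as a term (−0.43) and without libraries under 90% (−0.57).

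LSS in NC GOM lay between 9.59 and 17.9 TPM (median 13.8, n = 9), while WG GOM spanned 10.6 to 98.2 TPM (median 29.6, n = 45). This was a log2 fold change of 1.06 ± 0.26 (adjusted p = 0.00153), and without libraries under 90% it was 1.15 with an adjusted p of 0.128. SQLE in RAD had a median of 10.3 TPM in NC (4.85 to 17.4) and 18.1 TPM in WG (7.78 to 42.8), a log2 fold change of 0.61 ± 0.18 (adjusted p = 0.00741). INSIG1 in RAD had a median of 15.2 TPM in NC (7.98 to 42.4) and 25.9 TPM in WG (12.2 to 61.2), a log2 fold change of 0.59 ± 0.21 (adjusted p = 0.027). The WG libraries of both genes were shifted upwards with wide overlap. Both changes lay close to the 1.5-fold threshold, and without libraries under 90% neither was called. HMGCS1 had log2 fold changes of 0.26 to 0.47, with adjusted p of 0.036 in GOM and 0.03 in RAD, but under 1.5-fold. DHCR7 (−0.31 to 0.44) and SREBF2 (−0.01 to 0.47) were not called in any AT.

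Between NC and WL, pigs on the restricted diet after the high-fat diet were set against pigs on the normal diet. In GOM IDI1 and FDFT1 were called lower, with 15.4% of all PCGs called higher and 20.7% lower. In MAD HMGCS1, SQLE and INSIG1 were called higher and IDI1 and LSS lower, with 15.2% of PCGs higher and 17.8% lower. In RAD IDI1, FDFT1 and LSS were called lower, with 10.2% of PCGs higher and 16.6% lower. In ULB HMGCS1 was called higher and IDI1, FDFT1 and LSS lower, with 5.39% of PCGs higher and 9.37% lower.

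IDI1 was called lower in each AT, with log2 fold changes of −0.80, −0.79, −1.09 and −1.27 in GOM, MAD, RAD and ULB. In ULB its NC values were 154, 73.3, 180.1, 101 and 105 TPM, and only 1 of them, 73.3 TPM, lay within the WL range of 42.9 to 94.1 TPM. For FDFT1 the log2 fold changes were −0.84 in GOM, −0.77 in RAD and −0.62 in ULB, and −0.54 in MAD, where the fold change stayed under 1.5. Without libraries under 90% the GOM values became 0.22 for FDFT1 (adjusted p = 0.331) and −0.38 for IDI1 (adjusted p = 0.37), neither of them called. HMGCS1 (0.87, adjusted p = 0.0487) and INSIG1 (0.93, adjusted p = 0.0468) were called higher in that fit. It left out 7 of 9 NC GOM and 8 of 10 WL GOM libraries, so these GOM values rest on very few libraries. LSS differed by −0.94, −0.96 and −0.97 in MAD, RAD and ULB, and by 0.05 in GOM (adjusted p = 0.815), where its NC level was already the lowest. In ULB its NC values were 76.5, 35.4, 159.6, 33.6 and 59.3 TPM, and without NC ULB replicate 7, the highest, the log2 fold change was −0.50 (adjusted p = 0.0953). HMGCS1 in ULB had NC values of 38.9, 19.2, 34.6, 23.3 and 26.3 TPM against a WL median of 53.6 TPM (27.8 to 67.3), a log2 fold change of 0.62 ± 0.19 (adjusted p = 0.0331). That call was lost without NC ULB replicate 5, 9 or 12 (log2 fold changes 0.51, 0.60 and 0.55, adjusted p = 0.093, 0.0782 and 0.0861). FDFT1 in ULB was no longer called without NC ULB replicate 2 (−0.52) or 9 (−0.54), while SQLE was called without replicate 9 (1.14) and SREBF2 without replicate 12 (0.61).

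The highest values of HMGCS1 and SQLE in WL MAD came from 3 libraries. In WL MAD replicates 1, 6 and 7, SQLE stood at 38.4, 50.3 and 39.6 TPM, and in the other 7 libraries it ran from 4.92 to 11.2 TPM. HMGCS1 was 59.1, 88.2 and 65.4 TPM in the 3 and 22.2 to 32.4 TPM in the others, and all 10 lay above its NC MAD median of 19.03 TPM. SREBF2 was 44.4, 58.6 and 40.97 TPM against 13.5 to 21.8 TPM. IDI1 was 66.4, 80.9 and 66.3 TPM against 18.1 to 45.5 TPM. LSS did not share this split, at 28.1, 27.1 and 19.1 TPM against 12.0 to 26.2 TPM. Nor did INSIG1, at 44.4, 32.6 and 23.6 TPM in the 3, with replicate 10 highest at 59.996 TPM and replicate 4 at 38.2 TPM. The same 3 libraries had summed lymphocyte markers of 620.1, 1492 and 1165 TPM, against 94.2 to 211 TPM in the other 7. All 8 lymphocyte markers were called higher from WG to WL in MAD, where 8.26% of all PCGs were. Among them CD3D rose 6.18-fold, CD2 4.91-fold and CD3E 4.44-fold, parts of the T cell surface. The libraries of high marker sums were left out after the data had been seen. For NC to WL in MAD these were WL replicates 1, 6 and 7 and, for smooth muscle, NC replicates 1 and 5. Without them the log2 fold changes from NC to WL in MAD were −0.18 for SQLE, 0.01 for HMGCS1 and 0.56 for INSIG1, none of them called. IDI1, LSS and FDFT1 were then called lower, and IDI1 was also called lower from WG to WL in MAD (log2 fold change −1.31, adjusted p = 0.0118).

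The ratio of IDI1 to HMGCS1 within a library had its lowest medians in the WL pigs. TPM is scaled by transcript length, so the levels of the 2 genes can be set against each other. The median ratio of IDI1 to HMGCS1 in GOM, MAD, RAD and ULB was 2.25, 2.97, 3.0 and 3.99 in NC and 1.79, 1.85, 2.10 and 3.70 in WG. In WL it was 0.993, 0.977, 0.840 and 1.00. IDI1 exceeded HMGCS1 in all 38 NC libraries, in 156 of 158 WG libraries and in 19 of 40 WL libraries. In ULB the 5 NC ratios lay between 3.83 and 5.21 and the 10 WL ratios between 0.742 and 2.28, without overlap. The ratio of LSS to HMGCS1 showed a like pattern, above 1 in 28 of 38 NC, 125 of 158 WG and 5 of 40 WL libraries, though not in GOM, where it was above 1 in 1 of 9 NC and 1 of 10 WL libraries, while that of LSS to SQLE was above 1 in 37, 154 and 35. These ratios were formed after the levels had been seen and carry no test.

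**Figure D3:**
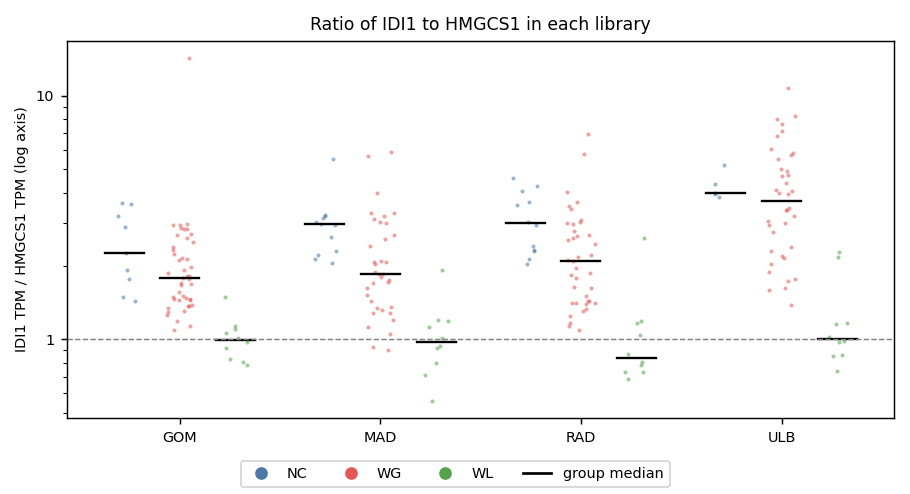
Ratio of IDI1 TPM to HMGCS1 TPM on a log axis, with a point for each library, a bar for each group's median and a dashed line at 1. The WL medians lie between 0.840 and 1.00, and the NC and WG medians between 1.79 and 3.99.

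Among ATs, LSS and IDI1 differed most, and the differences were largest between GOM and ULB. All 33 called differences between ATs were higher in the second AT in the order GOM, MAD, RAD, ULB. In NC pigs, LSS and DHCR7 were called between GOM and MAD (17.7% of all PCGs called), IDI1 and LSS between GOM and RAD (19.5%), HMGCS1, IDI1 and LSS between GOM and ULB (25.4%), and IDI1 and LSS between MAD and ULB (7.73%). None was called between MAD and RAD (2.41%) or RAD and ULB (4.32%) by this test, while 1 and 2 of the 8 had an unadjusted p under 0.05 and DESeq2 called none. In NC, LSS stood at 9.59 to 17.9 TPM in GOM (n = 9) and at 33.6 to 159.6 TPM in ULB (n = 5) with no overlap, a log2 fold change of 2.37 ± 0.27 or 5.17-fold (adjusted p = 9.48e-06). IDI1 was also without overlap, at 20.3 to 71.7 TPM in GOM and 73.3 to 180.1 TPM in ULB (log2 fold change 1.42 ± 0.28, adjusted p = 0.00127). With the replicate number as a block, over the 4 pairs of NC GOM and ULB libraries that share a number, 1 of the 3 was called, LSS (adjusted p = 0.165 for HMGCS1 and 0.0732 for IDI1), and between MAD and ULB neither IDI1 (0.85, adjusted p = 0.109) nor LSS (0.90, adjusted p = 0.0615) was. Without libraries under 90%, which leaves out 7 of 9 NC GOM libraries, the calls of LSS (1.6) and DHCR7 (0.81) between GOM and MAD, IDI1 (1.4) between GOM and RAD and HMGCS1 (1.07) between GOM and ULB were lost. That of DHCR7 was also lost with the share of TPM on PCGs as a term (adjusted p = 0.191). HMGCS1 between NC GOM and ULB fell under 1.5-fold without NC ULB replicate 2 (log2 fold change 0.48). Between NC MAD and ULB, IDI1 was lost without NC ULB replicate 2 or 7 (0.85 and 0.81), and LSS without replicate 2, 7 or 12 (1.05, 0.61 and 1.19).

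In WG pigs, where 36 to 45 libraries per AT gave the smallest errors, SQLE, IDI1, LSS and INSIG1 were called between GOM and RAD (11.2% of PCGs called), and these 4 and FDFT1 between GOM and ULB (17.9%). IDI1 and LSS were called between MAD and ULB (14.4%) and between RAD and ULB (9.27%). No member was called between GOM and MAD (6.27%) or MAD and RAD (5.4%) by this test, while 4 and 6 of the 8 had an unadjusted p under 0.05. Some passed the adjusted p but stayed under 1.5-fold. They were LSS between GOM and MAD (adjusted p = 0.0328) and HMGCS1, SQLE, LSS, IDI1 and FDFT1 between MAD and RAD (adjusted p = 0.000243 to 0.0386). DESeq2 called SQLE between MAD and RAD. With the replicate number as a block, SQLE (0.69, adjusted p = 4.85e-07), IDI1 (0.64, adjusted p = 9.39e-08) and LSS (0.66, adjusted p = 6.61e-06) were called higher in RAD than in MAD. The step from GOM to ULB was 1.68 ± 0.14 on the log2 scale for LSS (adjusted p = 7.56e-18) and 1.6 ± 0.15 for IDI1 (adjusted p = 1.45e-15). SQLE had its step between GOM and RAD (0.90 ± 0.12, adjusted p = 1.07e-09) and differed by −0.07 between RAD and ULB (adjusted p = 0.705). HMGCS1 differed by 0.50 and 0.52 from GOM to RAD and ULB, with adjusted p of 2.85e-05 and 1.91e-05 but under 1.5-fold. SREBF2 differed by 0.26 or less in size between any pair of ATs, and DHCR7 by 0.33 or less.

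In WL pigs the difference between GOM and ULB took in 6 members, HMGCS1, SQLE, IDI1, FDFT1, LSS and INSIG1 (16% of PCGs called). SQLE, LSS and INSIG1 were called between GOM and RAD (12.2%), LSS between MAD and ULB (14.4%) and between RAD and ULB (4.34%), and none between GOM and MAD (5.97%) or MAD and RAD (7.31%) by this test, while 3 and 1 of the 8 had an unadjusted p under 0.05 and DESeq2 called none. With the block, INSIG1 alone was called between GOM and RAD. Without libraries under 90%, which leaves out 8 of 10 WL GOM libraries, HMGCS1 (0.69, adjusted p = 0.0577) and FDFT1 (0.49, adjusted p = 0.262) were not called between GOM and ULB, nor were SQLE (0.70), LSS (0.27) and INSIG1 (0.97) between GOM and RAD. LSS ranged from 9.11 to 24.4 TPM in GOM and from 27.9 to 53.2 TPM in ULB, without overlap, a log2 fold change of 1.36 ± 0.15 (adjusted p = 3.94e-07). SQLE had a median of 9.42 TPM in GOM and 21.4 TPM in ULB (1.09 ± 0.16, adjusted p = 1.59e-05). Without the libraries of high lymphocyte markers, HMGCS1, SQLE, IDI1 and FDFT1 were called as well between MAD and ULB, with log2 fold changes of 0.95, 1.25, 1.13 and 0.63. For LSS the ULB level was the highest of the 4 ATs by median in each nutritional group.

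**Figure D4:**
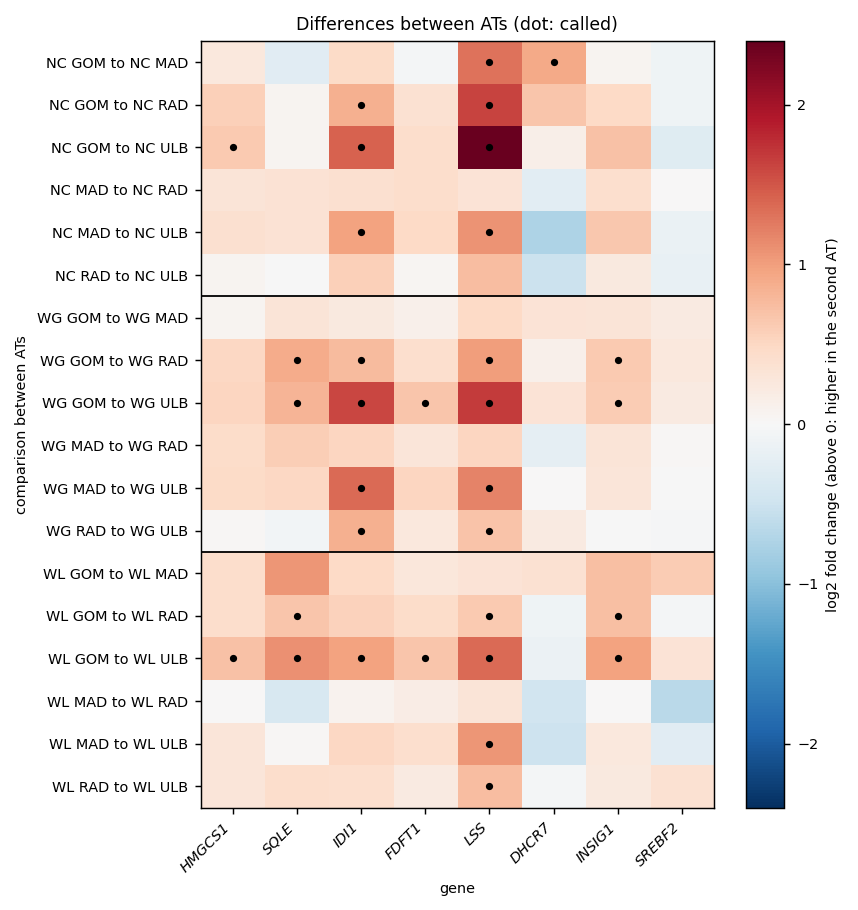
Log2 fold change of the 8 genes in the 18 comparisons between ATs, with red for higher in the second AT and a dot for a called value. Red with dots fills the columns of IDI1 and LSS, up to 2.37 for LSS between NC GOM and NC ULB, and SREBF2 has no dot.

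Whether the effect of diet differed between ATs was tested by an interaction over all libraries. The fit had no block, so libraries of different ATs that share a replicate number were treated as independent. None of the 8 members passed for NC to WG, where 8.8% of PCGs did, nor for WG to WL, where 6.41% did. By the unadjusted p, the smallest was that of SQLE for WG to WL (p = 0.0141, adjusted p = 0.145), whose log2 fold changes ran from −0.29 in RAD to 0.65 in MAD, and it was the only member with an unadjusted p under 0.05 in these 2 tests. For NC to WG the smallest was that of LSS (adjusted p = 0.198), which passed when the share of TPM on PCGs was a term of the fit (adjusted p = 0.0155). The larger fall of IDI1 in ULB (−1.51) than in MAD (−0.68) was not shown to differ (adjusted p = 0.484). For NC to WL no member passed the interaction test either, with unadjusted p of 0.0087 for SQLE (adjusted p = 0.0796) and 0.0273 for LSS (adjusted p = 0.157). LSS passed there with the share of TPM on PCGs as a term (adjusted p = 0.0184).

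From WG to WL, of the 16 other sterol synthesis enzymes tested, 1 was called higher and 2 lower in GOM, where 2.55% and 2.71% of all PCGs were. In MAD the counts were 2 and 1 (8.26% and 9.17% of PCGs), in RAD 1 and 1 (2.24% and 4.13%), and in ULB 0 and 4 (3.22% and 4.9%). Their median log2 fold changes were −0.17, 0.01, −0.18 and −0.16, against −0.04, −0.02, −0.01 and −0.02 over all PCGs. The strongest were GGPS1, which makes geranylgeranyl diphosphate and fell 2.21-fold in MAD (adjusted p = 3.74e-05), LBR, a sterol reductase of the nuclear membrane that rose 1.70-fold in MAD (adjusted p = 0.000109), and SC5D, a late desaturase that fell 1.71-fold in ULB (adjusted p = 0.000192). Of the 9 genes of sterol sensing and SREBP processing 1 was called lower, in ULB. Their calls of smallest adjusted p were from NC to WL in GOM, where 3 of 9 were called higher and 1 lower (15.4% and 20.7% of all PCGs). Among those called higher, the ubiquitin ligase RNF139 and the retention protein INSIG2 rose 1.58-fold and 1.54-fold. From NC to WL in MAD, RAD and ULB, 0 were called higher and 1 lower in each.

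Genes of fatty acid synthesis, the targets of the related factor SREBP-1, fell together from WG to WL. All 9 were called lower in GOM, MAD and ULB and 8 of 9 in RAD, beside 2.71%, 9.17%, 4.9% and 4.13% of all PCGs. Their median log2 fold changes were −1.56, −1.96, −1.99 and −1.5 in the same order. FASN, fatty acid synthase, had log2 fold changes of −4.93, −5.57, −5.31 and −3.96 in GOM, MAD, RAD and ULB. ME1, malic enzyme, stood at −3.07, −3.52, −2.73 and −2.76, and ELOVL6, a fatty acid elongase, at −1.56, −1.96, −1.5 and −2.28. From NC to WG, 7 of 9 were called higher in GOM, with 2 in RAD, 1 in MAD and 0 in ULB, beside 12.2%, 7.1%, 5.38% and 0.507% of all PCGs. The log2 fold changes of IDI1 and LSS were smaller in size than those of FASN and ME1 in each AT.

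Uptake, transport and efflux of cholesterol were covered by 2 lists. Of 12 tested genes of lipoprotein uptake and intracellular transport, 1 rose in GOM and 3 in RAD from NC to WG, where 12.2% and 7.1% of all PCGs did, and 1 of 13 rose in ULB (0.507%). From WG to WL 1 fell in RAD (4.13% of PCGs), and 1 rose and 2 fell in ULB (3.22% and 4.9%). MYLIP, which degrades lipoprotein receptors, fell 1.6-fold in ULB (adjusted p = 3.15e-05) and NPC1, the lysosomal cholesterol exporter, 1.52-fold in RAD (adjusted p = 0.000439), both from WG to WL, while NPC2, its partner, rose 1.54-fold from NC to WL in GOM. Of the genes of esterification, efflux and LXR signalling, 5 of 10 rose from NC to WG in GOM and 2 of 10 in MAD, against 4 and 1 of 9 in RAD and ULB, beside 12.2%, 5.38%, 7.1% and 0.507% of all PCGs. SOAT1, which esterifies cholesterol, rose 2.12-fold in RAD (adjusted p = 3.91e-05). NCEH1, a cholesterol ester hydrolase, rose 2.23-fold from NC to WL in MAD, and ABCA1, the cholesterol exporter, 1.89-fold from WG to WL in RAD (adjusted p = 6.49e-06).

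Markers of other cell types moved with some of these comparisons, and their part in the members' values was not tested. Macrophage markers were called higher from NC to WG for 7 of 7 tested genes in MAD and 3 of 7 in RAD (5.38% and 7.1% of all PCGs). In GOM 0 of 8 were called higher and 1 lower (12.2% and 14.5%), and in ULB 0 of 7 were called. From NC to WL in GOM 0 of 8 were called higher and 3 lower (15.4% and 20.7%). From WG to WL in MAD 3 of 8 were called higher and 1 lower (8.26% and 9.17%). Of these markers, MARCO rose 13.1-fold from WG to WL in MAD. C1QC rose 3.76-fold from NC to WL in MAD, and C1QA rose 2.29-fold from NC to WL in RAD. Of the 7 adipocyte markers, from WG to WL 1 fell in GOM, 2 in MAD and 1 in RAD (2.71%, 9.17% and 4.13% of all PCGs), and 2 rose in ULB (3.22%). LEP, leptin, rose 4.02-fold from NC to WG in RAD, PPARG fell 2.14-fold from NC to WL in RAD, and PLIN1, a lipid droplet protein, rose 1.61-fold from WG to WL in ULB, where IDI1 and LSS fell. Fibroblast and progenitor markers fell from WG to WL for 3, 4, 2 and 3 of 7 genes (GOM, MAD, RAD, ULB), beside 2.71%, 9.17%, 4.13% and 4.9% of all PCGs. COL1A1 fell 4.08-fold from NC to WL in GOM, while PI16 rose 2.4-fold from NC to WG in GOM and DPP4 rose 2.09-fold from WG to WL in ULB. Smooth muscle markers MYH11 and CNN1 fell 8.0-fold and 7.17-fold from NC to WG in MAD, the AT whose NC replicates 1 and 5 stood apart, and TAGLN rose 2.23-fold from NC to WL in GOM.

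Apart from the endothelial list, the remaining lists held few detected genes. Of the 5 endothelial genes tested from NC to WL, TEK rose 1.6-fold in GOM and 1.64-fold in RAD, and CDH5 fell 1.54-fold and 1.57-fold in the same ATs. In each of these ATs 3 of the 5 were not called. WT1 fell 1.92-fold from NC to WG in GOM. CKM, of skeletal muscle, fell 5.19-fold from NC to WG in MAD. Its medians there were 3.18 TPM in NC and 1.95 TPM in WG, with the highest NC library at 60.2 TPM. CPA1 of the exocrine pancreas and the epithelial EPCAM fell 3.72-fold from WG to WL and 4.91-fold from NC to WL in ULB. Both were low, with medians of 1.37 TPM in WG and 0.424 TPM in WL for CPA1. For EPCAM they were 1.99 TPM in NC (n = 5, highest 8.86 TPM) and 0.728 TPM in WL. HBB and ALAS2, of red blood cells, rose 4.75-fold and 4.58-fold from NC to WL in GOM.

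Within groups, the members rose and fell together only in part. With group means removed, the log2 levels of 23 of the 28 pairs of members had a Pearson correlation above 0 over all libraries, with a median of 0.197. The highest was HMGCS1 with SQLE (0.549), followed by HMGCS1 with FDFT1 (0.515) and IDI1 with LSS (0.458), with Spearman's rho of 0.516, 0.496 and 0.440. SREBF2 was negatively correlated with FDFT1 (−0.363), IDI1 (−0.289), HMGCS1 (−0.238) and weakly with LSS (−0.092), and positively with SQLE (0.396) and DHCR7 (0.142). DHCR7 was loosely tied to all, at −0.0119 to 0.219. The points share libraries, depth and pigs, and the values are descriptions. Over the 188 libraries of at least 90% on PCGs the same 3 pairs stood at 0.573, 0.484 and 0.510.

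**Figure D5:**
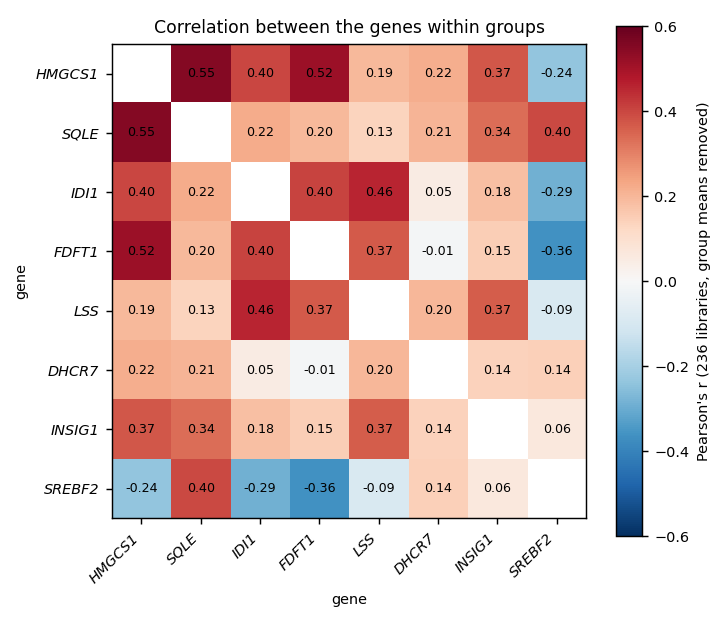
Pearson's r between the log2 levels of each pair of genes over all libraries after removal of the 12 group means. HMGCS1 with SQLE is the reddest cell (0.549), and the row of SREBF2 is blue for HMGCS1, IDI1, FDFT1 and LSS.

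The PCGs most like the members' mean, outside the members and lists, were ranked by the same within-group correlation over all libraries. FADS1, a fatty acid desaturase, came first at 0.573. MCM2 (0.558), STAT2 (0.553), MPDU1 (0.551), TAP1 (0.551), H1-3 (0.548), ALDH4A1 (0.537), NNT (0.532), RNPEP (0.531) and GAPDH (0.516) followed. Over 15068 genes the median was 0.0417 and the 99th percentile 0.423. The 16 other sterol synthesis enzymes had a median of 0.416, the 9 fatty acid synthesis genes 0.262, the 8 lymphocyte markers 0.271 and the 7 adipocyte markers −0.131.

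The A-B index describes whether a 20-kb bin lies in active, open chromatin (above 0) or closed chromatin (below 0), and came from 240 Hi-C samples. The bins at the start of HMGCS1, SQLE, DHCR7, INSIG1 and SREBF2 were above 0 in all 240 samples and that of FDFT1 in 239, while 48.4% of all bins had a median above 0. LSS, on an unplaced scaffold, had no bin. IDI1 was the exception, above 0 in 193 samples (80.4%). Its mean index was lowest in GOM (1.24 ± 2.02, SD) and highest in ULB (3.40 ± 2.04), the ATs where its TPM in NC and WG was also lowest and highest, with MAD at 2.52 ± 2.47 and RAD at 2.07 ± 2.58. Its mean in NC, WG and WL was 1.87, 2.22 and 2.78, against a fall of TPM in WL, and the term for nutritional group was not significant (adjusted p = 0.332).

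By limma's F test over all bins, the index differed between ATs at 6 of 7 members and 88.5% of all bins. SREBF2 was the exception (adjusted p = 0.949), with means of 3.83 to 3.87. Between nutritional groups 2 of 7 passed, against 66.4% of all bins. They were FDFT1, with means of 1.26 ± 0.44 in NC, against 1.85 ± 0.70 and 1.96 ± 0.70 in WG and WL (adjusted p = 9.68e-08), and SQLE, with 2.19 ± 0.47, 2.62 ± 0.54 and 2.46 ± 0.59 (adjusted p = 0.000268). With quantile normalization between samples 6 of 7 passed, and with the mean of all bins of the gene 4.

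H3K27ac marks active enhancers, and 18 deposited tables, 4 of NC, 10 of WG and 4 of WL, ranked 18143 to 25819 enhancer regions each and named 503 to 1752 of them super-enhancers. A region lay within 10 kb of FDFT1, DHCR7 and SREBF2 in all 18 tables, of IDI1 and INSIG1 in 17, of HMGCS1 in 15 and of SQLE in 12. A super-enhancer lay there for SREBF2 in 13 tables, FDFT1 in 12 and INSIG1 in 11, and for HMGCS1, SQLE, IDI1 and DHCR7 in none. For INSIG1 the super-enhancer was present in 0 of 4 NC, 8 of 10 WG and 3 of 4 WL tables, and for SREBF2 in 2 of 4, 7 of 10 and 4 of 4. FDFT1 had it in 2, 7 and 3. Each table was made from the libraries of its group, which for NC MAD was a single H3K27ac sample. The cutoff for a super-enhancer also differed between tables. The INSIG1 region of rank 666 in WG MAD subgroup 4 was not named one, while that of rank 1083 in WG GOM subgroup 5 was. The share of all genes with a super-enhancer this near was not computed. The tables carry no replicate error, so these counts have no test.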

How the data were processed

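RNA-seq was done on rRNA-depleted, stranded total RNA of the 38 NC, 158 WG and 40 WL libraries, Hi-C (MboI) on 240 samples and H3K27ac ChIP-seq on single samples, whose reads were pooled by group for the enhancer tables. The authors quantified transcripts with kallisto 0.43.0 on Sscrofa11.1 models and summed them to genes with tximport, and the deposited tables hold expected counts and TPM per gene. The deposited A-B index is a compartment score per 20-kb bin from Juicer contact maps corrected by the authors. The deposited enhancer tables hold the authors' H3K27ac signal per region (BWA 0.7.15, SAMtools 1.3.1, SICER, ROSE). The authors' own comparisons used edgeR and are not used here. Of the table's columns, 9 matched no sample label and were not used.

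Expected counts were rounded and PCGs whose TPM exceeded 0.5 in 80% or more of a compared group were tested with edgeR 4.0.16 (TMM, quasi-likelihood; R 4.3.3), 2 groups per fit, with interactions over all libraries. TPM are deposited values and were not rescaled for the levels given. The A-B index was tested with limma 3.58.1. Alternatives were DESeq2 1.42.0, RLE scaling, no filter, a replicate block, the PCG share as a term, and libraries left out; the scripts were tested on simulated data. Levels, ratios, enhancers and promoters were handled in Python 3.11.15 with pandas 2.3.3, numpy 2.4.6 and scipy 1.17.1. Symbols came from the pig annotation, promoters and positions from RefSeq.

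The members and lists were chosen with earlier results of these data known. All 8 members were reported in every comparison. Of each other list, the called genes with the 3 smallest adjusted p over the 12 comparisons between nutritional groups were named, or the gene of the smallest adjusted p where none was called, and 10 PCGs outside the lists by their correlation. A listed gene and a promoter window that these rules would name are not reported here. Of 125 listed genes outside the members, 108 were in the table under their symbol. Whether a number marks the same pig in 4 ATs was checked by the correlation of deviations from the group means, and every pair exceeded 0.1 in NC GOM with ULB (4 of 4), WG MAD with ULB (30 of 30) and WL MAD with RAD (10 of 10). In the other comparisons between ATs not every pair did. The counts there were as low as 5 of 9 in NC GOM with MAD, 3 of 5 in NC MAD with ULB and NC RAD with ULB, and 6 of 10 in WL GOM with MAD. Across nutritional groups the same number is a different pig.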

Additional observations from a re-analysis of the deposited data

Results flagged for a closer look

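In groups of 5 to 10 libraries, 48 sets of TPM (the 8 genes in 6 groups) were searched for a library far from the rest by Dixon's test, and 6 were found. Chance gives about 1 in 20 groups. All 6 were the highest of 10 WL libraries. HMGCS1 in WL RAD replicate 6 was 86.2 TPM, and the next library 44.1 TPM. SQLE in WL ULB replicate 9 was 35.8 TPM, and the next 23.1 TPM. IDI1 in WL GOM replicate 10 was 49.1 TPM, and the next 31.3 TPM. DHCR7 in replicate 9 was 28.8 TPM in WL MAD and 17.4 TPM in WL RAD, and the next libraries were 12.7 and 10.0 TPM. INSIG1 in WL ULB replicate 10 was 71.8 TPM, and the next 42.3 TPM. The WL ULB replicate 10 library had 78.6% of its TPM on PCGs and the WL GOM replicate 10 library 88.8%, while the other 4 values came from libraries of 92.2% to 94.1%.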

How the results depend on the processing

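Without libraries under 90% of TPM on PCGs, the number of members called moved from 2 to 0 for NC to WG in GOM, WG to WL in GOM and GOM to MAD in NC, from 1 to 0 for WG to WL in MAD, from 5 to 1 for NC to WL in MAD, from 3 to 0 for NC to WG in RAD and GOM to RAD in WL, from 4 to 2 for NC to WL in ULB, from 2 to 1 for GOM to RAD in NC and from 1 to 5 for MAD to ULB in WL. For NC to WL in GOM the count stayed at 2 with other members called. Its log2 fold changes reversed for FDFT1 from NC to WG in GOM (0.25) and NC to WL in GOM (0.22) and for SQLE from NC to WL in MAD (−0.55). Fewer libraries remain there, and the cause was not tested further. Without the libraries of high lymphocyte or smooth muscle markers, chosen after seeing the data, counts moved from 5 to 3 (NC to WL, MAD; SQLE reversed to −0.18), 1 to 2 (WG to WL, MAD), 2 to 1 (MAD to ULB, NC), 0 to 1 (MAD to RAD, WG) and 1 to 5 (MAD to ULB, WL). DESeq2 gave 1 for NC to WG in MAD, 3 for WG to WL in MAD and 1 for MAD to RAD in WG. No filter gave 1 in each of NC to WG in MAD, MAD to ULB in NC and MAD to RAD in WG, and RLE gave 1 in the last. With the PCG share as a term, counts were 3 for NC to WL in MAD, 1 for NC to WG in RAD and 1 for the interaction of NC to WG. The nutritional term of the A-B index passed for 6 bins with quantile normalization and 4 with the mean of all bins of a gene, against 2.

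With a replicate block, counts became 0 for NC to WG in GOM, WG to WL in GOM, NC to WG in RAD and MAD to ULB in NC, 1 for NC to WL in MAD, NC to WL in ULB, GOM to ULB in NC and GOM to RAD in WL, and 3 for MAD to RAD in WG. Between nutritional groups the numbers pair different pigs, and the block moved no other count of members by over 1.5 times. Leaving out each NC ULB library gave 2 to 3 members for GOM to ULB, 0 to 2 for MAD to ULB, 0 to 0 for RAD to ULB and NC to WG, and 3 to 4 for NC to WL. The calls of IDI1 and LSS from WG to WL in RAD and ULB held under all 6 alternatives run for them. The number of all PCGs called moved by over 1.5 times in 18 of 30 comparisons without libraries under 90%, in 10 with no filter, in 9 with the block and in 6 with the PCG share as a term. Depth left every member above 0.5 TPM in every library. Precision was limited in ULB by the 5 NC libraries and in GOM by the number of NC and WL libraries under 90%.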
